A study of Mus musculus with 19 samples.

Results

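The 9 transcription factors described here set the identity and the inflammatory state of myeloid cells. They were chosen by name as Spi1, Runx1, Cebpa, Cebpb, Cebpd, Maf, Mef2a, Mef2c and Klf2, and all 9 were matched to their Ensembl gene among the 56980 genes of the count table. The RNA came from MACS-isolated CD11b+ cells of the brain, without olfactory bulb and cerebellum, of 19 male mice aged 3 to 4 months. PARK7/DJ-1 KO mice carry a germline gene trap allele, Park7 Gt(XE726)Byg, were backcrossed to C57BL/6NCrl and were compared with wildtype littermates. They comprised 5 KO and 5 wildtype mice killed 6 h after 4 μg/g body weight of LPS by intraperitoneal injection (KO LPS and WT LPS), and 5 KO and 4 wildtype mice given PBS, named saline vehicle in the treatment protocol (KO PBS and WT PBS). LPS is a bacterial cell wall component that triggers systemic inflammation, and CD11b is an integrin that microglia, like other myeloid cells, carry on their surface. The comparisons asked what LPS did in each genotype, and whether KO and wildtype cells differed with and without LPS.

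PU.1, the product of Spi1, is an ETS-family factor that opens macrophage and microglial enhancers, where it meets RUNX1, C/EBP and MEF2 proteins. C/EBPα maintains the steady-state myeloid programme, whereas C/EBPβ and C/EBPδ, which bind the same DNA letters, are known as acute-phase factors of inflammation. MEF2 and large MAF proteins are linked with the homeostatic state of tissue macrophages, and KLF2 is known to restrain myeloid activation.

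After LPS, 4 of the 9 factors were higher (Spi1, Runx1, Cebpb and Cebpd) and 4 were lower (Maf, Mef2a, Mef2c and Cebpa), each in wildtype and in KO mice, while Klf2 passed the test in neither. A gene was called between LPS and PBS at an adjusted p-value under 0.05 and a log2 fold change of at least 0.5 in size, in edgeR's quasi-likelihood fit of all 19 libraries with Benjamini-Hochberg adjustment over the 18739 genes tested. In wildtype mice this held upwards for 18.4% and downwards for 17.4% of all genes tested, and in KO mice for 20.1% and 19% of them. The values of the LPS and the PBS libraries did not overlap for 8 of the 9 factors in either genotype, against 37.8% of all genes tested in wildtype and 32.8% in KO mice. None of the 9 was called between the genotypes. The median size of the log2 fold change over the 9 was 1.26 in wildtype and 1.34 in KO mice, beside 0.54 and 0.56 over all genes tested. All levels below are CPM, counts scaled to the library total after TMM normalisation, and each error is the SD over mice.

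Total counts ranged from 11936364 to 22788884 per library. In the library with the fewest, 3 counts correspond to 0.256 CPM, far under the lowest level of any of the 9 factors (25.3 CPM), and this limit covers counting error only. Park7 stood at 20.6 to 32.1 CPM in the wildtype and at 0.457 to 5.38 CPM in the KO libraries. The labelled microglia were present by their markers. The summed level of the 9 microglial markers measured (1 of the 10 listed was not matched) was 24777 to 40043 CPM in the PBS and 10744 to 17152 CPM in the LPS libraries, and 8 of the 9 were lower after LPS in each genotype. Of 6 monocyte markers 5 were higher after LPS in each genotype, and their sum went from 134 to 196 CPM with PBS to 198 to 471 CPM with LPS. Of 9 neutrophil markers 4 were higher in wildtype and 5 in KO mice, with sums of 26.8 to 243 CPM (PBS) and 109 to 489 CPM (LPS). The sum of 8 lymphocyte markers was 8.001 to 12.5 CPM with PBS and 1.85 to 4.95 CPM with LPS, most of it Cd79b, the 1 of them called lower in each genotype, and the T-cell markers Cd3e, Cd3d, Cd3g and Trbc2 were between 0 and 0.337 CPM in every library. The fifth KO LPS library stood apart with the lowest sums of the 19 for 8 endothelial markers (80.0 CPM, against 169 to 1300 CPM in the others) and for 7 astrocyte markers (434 CPM, against 614 to 5172 CPM). Results of the 9 factors that rest on it are given with and without it. The first KO LPS library stood apart the other way, with the highest sums of the 19 for 6 oligodendrocyte markers (11303 CPM, against 523 to 9795 CPM), for the astrocyte markers and for 8 neuron markers (191 CPM, against 17.6 to 114 CPM). It was also the lowest of its group for Mef2a, Mef2c, Runx1 and Cebpb. Without it the log2 fold changes after LPS in KO mice were -0.72, -1.26, 1.81 and 2.69, and those of KO LPS over WT LPS were 0.14, 0.0059, 0.43 and -0.37, in that order. The second WT PBS library had the highest endothelial sum of the 19 (1300 CPM), with 9795 CPM of oligodendrocyte and 3671 CPM of astrocyte markers. Within its group it was lowest for Spi1, Maf, Mef2a, Mef2c, Runx1 and Cebpa. Leaving it out gave log2 fold changes after LPS in wildtype mice of 0.99, -1.21, -0.91, -1.35, 1.28 and -1.37, in that order. After LPS, 0 of the 6 oligodendrocyte markers were called in either genotype, 1 of the 7 astrocyte markers (Gfap) was higher in each, and of the 8 neuron markers 1 was higher and 1 lower in wildtype and 1 higher in KO mice. In such bulk samples, fewer cells of a type and less RNA per cell cannot be told apart.

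The DNA just before the transcription start shows what these genes carry where transcription begins. For every protein-coding gene, the 250 bases before the start of the canonical GENCODE M39 transcript were read from GRCm39 and searched on both strands for short letters that C/EBP (TTGCNNAA), PU.1 and other ETS factors (GAGGAAG), RUNX (TGTGGT), KLF (CCACACCC), AP-1 (TGANTCA), CREB (TGACGTCA) and STAT factors (TTCNNNGAA) are known to bind, and for the MEF2 and NF-kappaB consensus. None of these overlapped another in the 9 windows. The windows of the 4 factors that rose after LPS and that of Maf, which fell, are printed here 5′ to 3′ on the strand of the gene, with the matches in capitals.
Spi1: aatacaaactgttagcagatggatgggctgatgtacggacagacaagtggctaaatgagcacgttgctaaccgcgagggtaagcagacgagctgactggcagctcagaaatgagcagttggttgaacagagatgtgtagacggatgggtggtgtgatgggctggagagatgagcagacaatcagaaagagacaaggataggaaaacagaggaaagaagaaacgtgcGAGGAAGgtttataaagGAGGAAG
Runx1: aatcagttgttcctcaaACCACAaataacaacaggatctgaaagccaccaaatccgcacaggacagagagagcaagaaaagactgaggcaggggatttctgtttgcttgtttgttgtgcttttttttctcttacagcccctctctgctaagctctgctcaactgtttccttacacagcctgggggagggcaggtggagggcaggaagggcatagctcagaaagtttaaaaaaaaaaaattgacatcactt
Cebpb: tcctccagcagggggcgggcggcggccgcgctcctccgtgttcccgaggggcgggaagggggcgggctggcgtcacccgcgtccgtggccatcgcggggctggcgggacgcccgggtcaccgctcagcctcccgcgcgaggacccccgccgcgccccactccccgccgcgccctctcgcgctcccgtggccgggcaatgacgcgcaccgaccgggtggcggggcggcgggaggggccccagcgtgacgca
Cebpd: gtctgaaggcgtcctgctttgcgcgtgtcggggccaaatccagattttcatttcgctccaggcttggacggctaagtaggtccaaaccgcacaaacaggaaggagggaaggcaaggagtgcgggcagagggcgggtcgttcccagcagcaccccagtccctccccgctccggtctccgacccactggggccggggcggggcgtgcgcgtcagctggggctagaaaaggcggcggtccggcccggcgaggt
Maf: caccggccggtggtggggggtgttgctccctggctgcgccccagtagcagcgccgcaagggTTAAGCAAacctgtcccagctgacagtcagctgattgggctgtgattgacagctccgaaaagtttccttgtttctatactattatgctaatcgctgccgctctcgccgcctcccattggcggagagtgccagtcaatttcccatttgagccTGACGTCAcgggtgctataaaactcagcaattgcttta
They lie at chr2:90926191-90926440 (plus strand), chr16:92623038-92623287 (minus strand), chr2:167530585-167530834 (plus strand), chr16:15704900-15705149 (plus strand) and chr8:116434580-116434829 (minus strand). Of the Cebpd window, 185 bases lie in an exon of the lncRNA gene Gm56598, and the Maf window lies in part in an exon of Gm63764.

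The Spi1 window held the ETS letters at 2 places, 24 and 7 bases before the start counted from the first letter. The Mef2a window (not printed) also held them at 2 places, 114 and 103 bases before the start, while 10.3% of all 21770 windows held them at least once. Of the Mef2a window, 247 bases lie in exons of Gm72685 and Gm72692. Runx1 had the RUNX letters once, read on the opposite strand (13% of all windows), and Maf had the C/EBP letters (9.34%) and a CRE (1.69%), the site CREB binds. Mef2c, whose window was not printed since it runs into an exon of another Mef2c transcript, had the C/EBP letters and an AP-1 match (6.17%). No window of Cebpa, Cebpb, Cebpd or Klf2 held any of the letters searched, which says only that they are not in these 250 bases. The KLF (3.56%), STAT (7.7%), MEF2 (2.79%) and NF-kappaB letters (7.62%) were in none of the 9 windows. The Cebpb window was the richest of the 9 in G and C (81.6%) and that of Mef2c the poorest (39.2%). A match here describes the letters and was not tested as a binding site.

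Spi1 and Runx1, the factors that open and hold the myeloid programme, rose together. Spi1 (ENSMUSG00000002111, chromosome 2, 90912562 to 90946101, plus strand) was at 173, 130.1, 160.4 and 137 CPM in the WT PBS libraries and at 297, 248, 352, 282 and 359 CPM in the WT LPS libraries. In the KO mice it was at 162, 179.6, 144, 129 and 135 CPM with PBS and at 266, 305, 258, 256 and 382 CPM with LPS. Every LPS library was above every PBS library of its genotype, and the ranges of the genotypes overlapped under each treatment. The means were 150.2 ± 20.3 CPM (SD, n = 4) and 308 ± 47.3 CPM (SD, n = 5) in wildtype and 149.8 ± 20.8 CPM (SD, n = 5) and 294 ± 53.3 CPM (SD, n = 5) in KO mice. That is a log2 fold change of 1.03 (SE 0.15, adjusted p = 1.45e-05) in wildtype and 0.97 (SE 0.14, adjusted p = 1.06e-05) in KO mice, fitted folds of 2.05 and 1.96. A two-sided exact permutation of log2 CPM gave p = 0.00794 in each genotype, the smallest that these group sizes allow, and it was run 36 times, for 9 genes in 4 comparisons.

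Runx1 (ENSMUSG00000022952, chromosome 16, 92398354 to 92623037, minus strand), which with its partner CBFβ directs blood and microglial development, rose further than Spi1. Its levels were 289, 233, 262 and 254 CPM in WT PBS and 755, 557, 622, 641 and 645 CPM in WT LPS. With KO PBS they were 209.5, 223, 247, 300.2 and 268 CPM and with KO LPS 454, 704, 1198, 617 and 931 CPM. The KO LPS mice spread widely, the third and the fifth above every WT LPS mouse and the first below all of them. The log2 fold change after LPS was 1.31 (SE 0.21, adjusted p = 4.20e-05) in wildtype and 1.64 (SE 0.19, adjusted p = 1.20e-06) in KO mice, and it stayed between 1.44 and 1.81 in KO mice when any 1 mouse of those groups was left out. The exact permutation test gave p = 0.00794 in both.

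Of the relatives of these factors, Spic, an ETS factor of red pulp macrophages, had a log2 fold change after LPS of 3.58 (SE 0.51) in wildtype and 3.60 (SE 0.46) in KO mice, and Ets2 of 2.04 (SE 0.26) in wildtype and 2.06 (SE 0.24) in KO mice. Fli1 and Ets1 fell, Fli1 with log2 fold changes of -1.45 (SE 0.26) in wildtype and -1.74 (SE 0.25) in KO mice, and Ets1 with -0.86 (SE 0.13) in wildtype and -0.87 (SE 0.13) in KO mice. Elf1, Runx2 and Cbfb were called in neither genotype, with log2 fold changes of -0.08, -0.05 and 0.27 in wildtype mice. Runx3 rose in wildtype mice by 1.16 (SE 0.32), and its log2 fold change of 0.34 (SE 0.29) in KO mice was not called. Spic was low, with means of 0.62 CPM in WT PBS, 0.52 in KO PBS, 7.57 in WT LPS and 6.39 in KO LPS. Spib had too few counts to be tested.

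The C/EBP genes split. Cebpa fell while Cebpb and Cebpd rose further than any other of the 9. Cebpa (ENSMUSG00000034957, chromosome 7, 34818718 to 34821353, plus strand) was at 637, 382, 530.0 and 429.7 CPM in WT PBS and 276, 235, 244, 127 and 135 CPM in WT LPS, where the fourth and the fifth mouse lay well under the other 3. In KO mice it was at 519, 471, 595, 439.9 and 424 CPM with PBS and 197, 171, 188, 137 and 273 CPM with LPS. No LPS library reached the lowest PBS library of its genotype. The log2 fold change was -1.28 (SE 0.23, adjusted p = 0.000172) in wildtype and -1.34 (SE 0.22, adjusted p = 5.85e-05) in KO mice (exact permutation p = 0.00794 in each).

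Cebpb (ENSMUSG00000056501, chromosome 2, 167530835 to 167532338, plus strand), a gene of a single exon, had the largest change of the 9. Its levels in WT PBS were 71.7, 52.4, 43.2 and 50.6 CPM, and in WT LPS 457, 383, 536, 462 and 558 CPM. The KO PBS libraries held 44.2, 25.3, 84.8, 70.4 and 64.6 CPM and the KO LPS libraries 259.7, 335, 333, 278 and 540.3 CPM. The second KO PBS mouse was the lowest of all 19, and the fifth KO LPS mouse lay among the WT LPS mice while the other 4 lay below them. The mean went from 54.5 ± 12.1 CPM (SD, n = 4) to 479 ± 69.8 CPM (SD, n = 5) in wildtype and from 57.9 ± 23.3 CPM (SD, n = 5) to 349 ± 112 CPM (SD, n = 5) in KO mice. The log2 fold change was 3.14 (SE 0.30, adjusted p = 1.46e-07), a fitted fold of 8.79, in wildtype and 2.59 (SE 0.27, adjusted p = 2.81e-07), a fitted fold of 6.03, in KO mice, with an exact permutation p of 0.00794 in each.

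Cebpd (ENSMUSG00000071637, chromosome 16, 15705150 to 15708895, plus strand), also of a single exon, varied least among mice of a group, with a pooled SD of 0.17 on the log2 CPM scale, against 0.67 for Klf2. It was at 53.1, 46.7, 39.9 and 54.3 CPM in WT PBS and 236, 246, 263, 224 and 207 CPM in WT LPS. With KO PBS it was at 48.6, 42.0, 45.1, 48.2 and 49.2 CPM and with KO LPS at 196, 166, 149, 157 and 211 CPM. The PBS values of both genotypes lay within 39.9 to 54.3 CPM, and the LPS values were all at or above 149 CPM. LPS raised it by 2.28 (SE 0.12, adjusted p = 3.32e-10) on the log2 scale in wildtype and 1.91 (SE 0.11, adjusted p = 3.28e-10) in KO mice (exact permutation p = 0.00794 in each).

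Put on a scale that allows genes to be compared, CPM per kb of the canonical transcript, Cebpa was the most abundant of the 3 with PBS and Cebpb with LPS. Cebpa stood at 188 ± 43.1 and Cebpb at 36.2 ± 8.07 CPM per kb in WT PBS, and at 77.4 ± 25.9 and 319 ± 46.4 CPM per kb in WT LPS. Of the summed level of the 3, Cebpa made up 75.4 to 83.7% in the WT PBS and 73.7 to 86.5% in the KO PBS libraries. With LPS its share was 10.7 to 22.2% in wildtype and 18.7 to 25.0% in KO mice, while Cebpb took 62.1 to 77.7% and 57.5 to 69.1%. Every one of the 19 libraries thus had either Cebpa or Cebpb as the leading one of these 3, by treatment and without exception. The sum of the 3 was 237 ± 48.8 CPM per kb in WT PBS, 459 ± 46.0 in WT LPS, 237 ± 34.4 in KO PBS and 353 ± 96.0 in KO LPS. These shares are a description and were not tested.

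**Figure D1:**
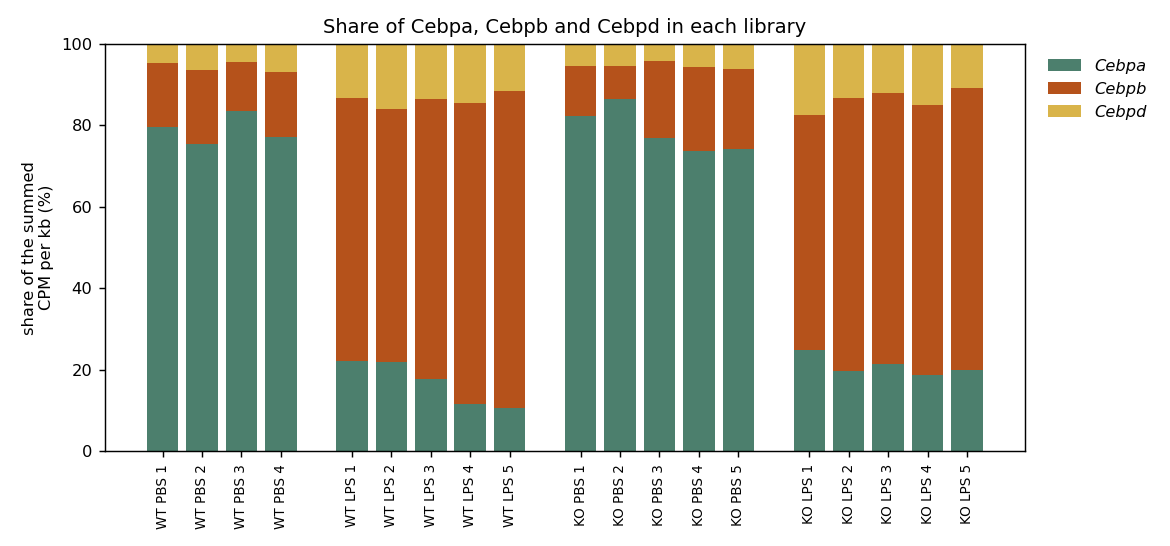
Share (%) of Cebpa, Cebpb and Cebpd in their summed CPM per kb of canonical transcript, 1 stacked bar per library, ordered by group. Cebpa fills at least 73.7% of every PBS bar, and Cebpb at least 57.5% of every LPS bar.

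Among the other C/EBP genes, Cebpg, a short member without an activation domain, fell, with log2 fold changes of -0.90 (SE 0.19) in wildtype and -1.001 (SE 0.18) in KO mice. Cebpz, listed by its symbol and not counted here as a C/EBP factor, rose in KO mice by 0.60 (SE 0.13). Its 0.40 (SE 0.14) in wildtype mice was under the fold threshold. Cebpe, the granulocyte member, and Ddit3, which encodes CHOP, were called in neither genotype. Trib1, a pseudokinase that brings C/EBPα to the ligase COP1 for degradation, rose by 1.98 (SE 0.18) in wildtype and 2.33 (SE 0.16) in KO mice, and Cop1 was not called, with 0.22 (SE 0.11) and 0.24 (SE 0.10). Monocytes and neutrophils also express C/EBP genes, and the sums of their marker lists given above moved with LPS. Their part in these changes was not tested.

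Maf, Mef2a and Mef2c, the factors linked with homeostatic macrophages, fell in both genotypes. Maf (ENSMUSG00000055435, chromosome 8, 116409632 to 116434579, minus strand) encodes c-MAF, a large MAF factor of resident macrophages. It was at 822, 598, 762 and 677 CPM in WT PBS and 411, 313, 333, 204 and 345 CPM in WT LPS. In KO mice it was at 768, 735, 733, 604 and 682 CPM with PBS and 213, 347, 126, 232 and 234 CPM with LPS, where the third mouse had the lowest level of the 19. LPS and PBS libraries did not overlap in either genotype. The log2 fold change was -1.15 (SE 0.22, adjusted p = 0.000254) in wildtype and -1.61 (SE 0.21, adjusted p = 3.81e-06) in KO mice (exact permutation p = 0.00794 in each).

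The small MAF genes, whose products lack an activation domain and pair with other bZIP proteins, were called in the upward direction only. Maff rose by 2.37 (SE 0.36) in wildtype and 3.14 (SE 0.34) in KO mice and Mafk by 1.11 (SE 0.19) and 1.47 (SE 0.18). The KO LPS libraries spread widely, from 47.3 to 214 CPM for Maff and from 97.8 to 223 CPM for Mafk. The WT LPS libraries ran from 50.2 to 72.3 CPM and from 101 to 119 CPM. Mafg rose by 0.52 (SE 0.13) in KO mice and was under the fold threshold in wildtype mice, with 0.39 (SE 0.13).

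Mef2a (ENSMUSG00000030557, chromosome 7, 66880911 to 67022606, minus strand), a MADS-box factor, had levels of 1004, 709, 951 and 839.9 CPM in WT PBS and 660.0, 429, 453, 465 and 449.9 CPM in WT LPS. In KO PBS they were 779, 949, 808, 985 and 983 CPM and in KO LPS 309, 529, 575, 474 and 584 CPM. The first mouse of WT LPS was high and the first of KO LPS low within their groups, yet no LPS value reached a PBS value of its genotype. Mef2a had the smallest fall of the 4, with log2 fold changes of -0.83 (SE 0.17, adjusted p = 0.000682) in wildtype and -0.87 (SE 0.17, adjusted p = 0.000255) in KO mice (exact permutation p = 0.0159 and 0.00794).

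Mef2c (ENSMUSG00000005583, chromosome 13, 83652064 to 83815555, plus strand), known to restrain inflammatory responses of microglia, was at 817, 538, 783 and 600.3 CPM in WT PBS and 397, 318, 303, 205 and 203 CPM in WT LPS. KO PBS libraries had 668, 846, 667, 616 and 658 CPM and KO LPS libraries 219.8, 366, 262, 236 and 277 CPM. Groups did not overlap between treatments. It fell by 1.26 (SE 0.20, adjusted p = 3.63e-05) on the log2 scale in wildtype and by 1.34 (SE 0.19, adjusted p = 9.48e-06) in KO mice, with an exact permutation p of 0.00794 in each. Mef2d was not called, with -0.15 (SE 0.09) in wildtype and -0.17 (SE 0.09) in KO mice, and Mef2b had too few counts to be tested. The sum of the microglial markers was also lower with LPS, as given above. Of 6 markers of border-associated macrophages 4 were lower in each genotype, with sums of 380 to 509 CPM (PBS) and 213 to 434 CPM (LPS), and 4 of the 8 endothelial markers were lower in each genotype, while 1, Cdh5, was called higher in KO mice (means of 39.7 CPM with PBS and 96.4 CPM with LPS, and 42.4 and 105 CPM in wildtype mice). The part of these cell types in the lower levels of Maf, Mef2a and Mef2c was not tested.

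Class IIa histone deacetylases bind MEF2 proteins and silence their targets, and ERK5 activates them. Hdac5 fell by 1.49 (SE 0.17) on the log2 scale in wildtype mice and by 1.44 (SE 0.17) in KO mice, whereas Hdac4 rose by 1.53 (SE 0.18) and 1.71 (SE 0.16). In KO mice Hdac7 fell by 1.06 (SE 0.36) and Hdac9 rose by 0.65 (SE 0.25), and neither was called in wildtype mice (-0.88 (SE 0.37) and 0.57 (SE 0.26)). Mapk7, which encodes ERK5, and its kinase gene Map2k5 were called in neither genotype, with 0.10 (SE 0.16) and -0.25 (SE 0.12) in wildtype and 0.03 (SE 0.15) and -0.49 (SE 0.11) in KO mice. Map2k5 in KO mice had an adjusted p-value of 0.00136 from edgeR and missed the call by the fold threshold.

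Klf2 (ENSMUSG00000055148, chromosome 8, 73072726 to 73075502, plus strand), a zinc finger factor of quiescent myeloid and endothelial cells, was the 1 of the 9 not called after LPS. Its levels were 236, 282, 190.1 and 298 CPM in WT PBS and 264, 204, 270.0, 142 and 299.8 CPM in WT LPS. They were 228, 102, 209.7, 259.9 and 296 CPM in KO PBS and 117, 115, 133, 195 and 639 CPM in KO LPS. The treatments overlapped in both genotypes, and the fifth KO LPS mouse, at 639 CPM, lay far above the next highest of its group, at 195 CPM. The log2 fold change was -0.09 (SE 0.43, adjusted p = 0.889) in wildtype and 0.13 (SE 0.41, adjusted p = 0.8288) in KO mice, with exact permutation p-values of 0.69 and 0.841. Without the fifth KO LPS mouse the value in KO mice turned to -0.65 (SE 0.27, adjusted p = 0.0574 from edgeR). That mouse also had the lowest endothelial sum of the 19.

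Of the KLF relatives, some were called after LPS and some, like Klf2, were not. Klf13 rose by 1.66 (SE 0.14) in wildtype and 1.70 (SE 0.13) in KO mice, and Klf7 by 0.81 (SE 0.18) and 1.16 (SE 0.17). Klf6 and Klf9 rose in KO mice by 0.62 (SE 0.22) and 1.07 (SE 0.39). They were not called in wildtype mice, with 0.52 (SE 0.24) and 1.00 (SE 0.42). Their KO LPS libraries spread widely, from 427 to 1205 CPM and from 50.1 to 185 CPM. The WT LPS libraries ran from 520 to 710 CPM and from 77.5 to 141 CPM. Klf11 fell in wildtype mice by 0.88 (SE 0.21), with -0.49 (SE 0.20) in KO mice. Klf3, Klf4 and Klf10 were called in neither genotype. Whether these genes differed between the genotypes is a separate test, which none of the KLF relatives passed.

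**Figure D2:**
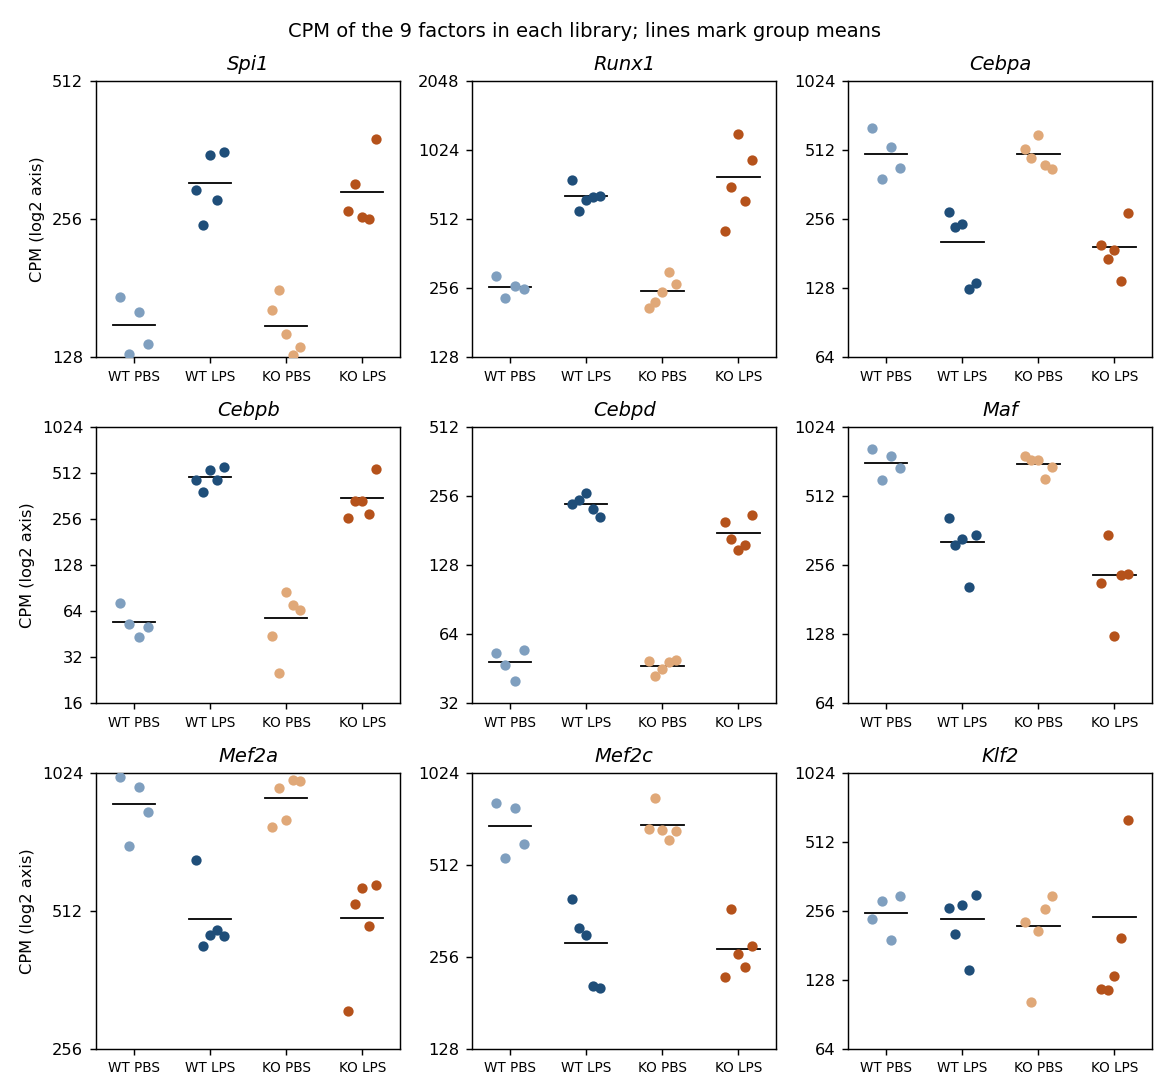
CPM of the 9 factors in each of the 19 libraries (log2 axis, a separate range per gene), 1 point per mouse in replicate order, with a line at each group mean. LPS and PBS points of a genotype are apart in 8 panels and mixed for Klf2, where 1 KO LPS mouse stands at 639 CPM.

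**Figure D3:**
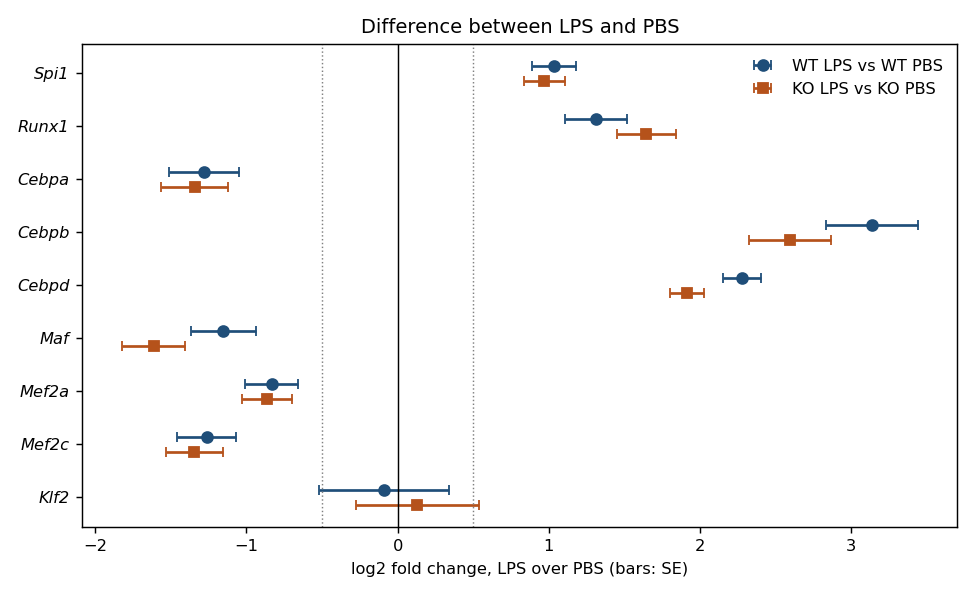
Log2 fold change between LPS and PBS with its SE for the 9 factors in wildtype mice (circles) and KO mice (squares), from the edgeR fit. Dotted lines mark 0.5 in each direction, and 8 factors lie outside them, from -1.61 (Maf in KO mice) to 3.14 (Cebpb in wildtype mice).

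Between the genotypes with PBS, none of the 9 factors passed the threshold. The log2 fold changes of KO over wildtype mice ranged from -0.20 (Klf2, SE 0.43) to 0.09 (Cebpb, SE 0.27), and the smallest of the 9 unadjusted p-values was 0.627 (Cebpd) from edgeR. The SEs of 0.12 (Cebpd) to 0.43 (Klf2) set how small a difference could be seen. With a block for the replicate number in the fit Klf2 was at -0.48, and with the animal number as a covariate at -0.45. The threshold between genotypes was an unadjusted p-value under 0.05 and a log2 fold change of at least 0.5 in size, which 0.8% of all genes tested passed. Whatever the fold change, 1.04% of all genes and 0 of the 9 had an unadjusted p-value under 0.05, and DESeq2 also gave 0 of the 9. The KO PBS and WT PBS values overlapped for all 9, and did not for 0.971% of all genes tested.

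After LPS, the 2 inflammatory C/EBP genes and Maf had lower means in KO than in wildtype mice, and none of them passed the thresholds. Of all genes tested 1.31% passed the thresholds in this comparison, and 0 of the 9 did by edgeR or by DESeq2. Regardless of fold change, the unadjusted p-value was under 0.05 for 2.57% of all genes and for 2 of the 9, Cebpd and Maf. With only these 2 groups in the edgeR fit, the unadjusted p-value was 0.0758 for Maf and 0.0340 for Cebpb. Cebpd had means of 235 ± 21.4 CPM (SD, n = 5) in WT LPS and 176 ± 26.9 CPM (SD, n = 5) in KO LPS, a log2 fold change of -0.42 (SE 0.11, unadjusted p = 0.00106, adjusted p = 1.00) by edgeR. The exact permutation test gave p = 0.0159, and 4 of the 5 KO mice lay below every wildtype mouse. Over the alternatives that kept all mice the log2 fold change stayed between -0.44 and -0.40, and between -0.50 and -0.37 when each mouse was left out.

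Cebpb had a log2 fold change of -0.46 (SE 0.26, unadjusted p = 0.0904, adjusted p = 1.00) between KO LPS and WT LPS, and the exact permutation test gave p = 0.0714. Again 4 of 5 KO mice lay below every wildtype mouse, and the fifth, at 540 CPM, was the mouse with the highest Klf2. Without it the log2 fold change was -0.67 (SE 0.25, unadjusted p = 0.0149, adjusted p = 0.972 by edgeR), which passed the thresholds. Klf2 passed them too in that fit, at -0.75 (SE 0.27, unadjusted p = 0.0113, adjusted p = 0.972), against 0.02 (SE 0.41) with all mice. The monocyte marker sum was 313 to 455 CPM in WT LPS (median 415) and 198 to 471 CPM in KO LPS (median 245), and 3 of the 5 KO LPS libraries were below every WT LPS library. The neutrophil sum was 172 to 489 CPM and 109 to 479 CPM, and the part of these cells in these values was not tested.

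Maf ran from 204 to 411 CPM in the 5 WT LPS mice and from 126 to 347 CPM in the 5 KO LPS mice, a log2 fold change of -0.48 (SE 0.21, unadjusted p = 0.0306, adjusted p = 1.00) from edgeR, with p = 0.135 in the exact permutation test. Here 1 KO mouse lay below and none above the wildtype range. Maf passed the thresholds without the second KO LPS mouse (-0.68) or without the fourth WT LPS mouse (-0.61), and its value was -0.32 without the third KO LPS mouse, the one at 126 CPM. Runx1 was at 781 ± 289.7 CPM (SD, n = 5) in KO LPS against 644 ± 71.5 CPM (SD, n = 5) in WT LPS, a log2 fold change of 0.28 (SE 0.19, unadjusted p = 0.16, adjusted p = 1.00) by edgeR, which was not called. Without the third KO LPS mouse, the highest for Runx1, it was 0.07, and without the first, the lowest, 0.43. Spi1, Mef2a, Mef2c and Cebpa had log2 fold changes of -0.07, 0.0075, -0.07 and -0.07, each smaller than its SE. The KO LPS and WT LPS values overlapped for all 9 factors, and did not for 0.219% of all genes tested.

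Whether LPS acted differently in KO mice was tested by the interaction of genotype and LPS in the same fit. It had an adjusted p-value under 0.05 for 0% of the 18739 genes and so for 0 of the 9, with edgeR and with DESeq2. The unadjusted p-value was under 0.05 for 0.961% of all genes and for 1 of the 9, Cebpd, whose LPS effect differed by -0.36 on the log2 scale in KO relative to wildtype mice (SE 0.16, unadjusted p = 0.0344, adjusted p = 1.00 by edgeR). The unadjusted p-value of Cebpd was over the threshold without the low-count filter (0.0594), with DESeq2's size factors (0.0607) and with DESeq2 (0.0649), which left 0 of the 9, and when each mouse was left out its difference ran from -0.44 to -0.28, with unadjusted p-values of 0.00999 to 0.0911 from edgeR. For Cebpb the same difference was -0.54 (SE 0.37), for Maf -0.46 (SE 0.30) and for Runx1 0.33 (SE 0.28). Without the third KO LPS mouse the differences of Maf and Runx1 were -0.30 and 0.13, and the ranges over each mouse left out were -0.65 to -0.30 for Maf, 0.13 to 0.47 for Runx1 and -0.75 to -0.38 for Cebpb. The smaller folds of Cebpb and Cebpd in KO mice are therefore differences in the estimates. That of Cebpb did not pass the test before adjustment (unadjusted p = 0.164 by edgeR). That of Cebpd did not pass it after adjustment.

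**Figure D4:**
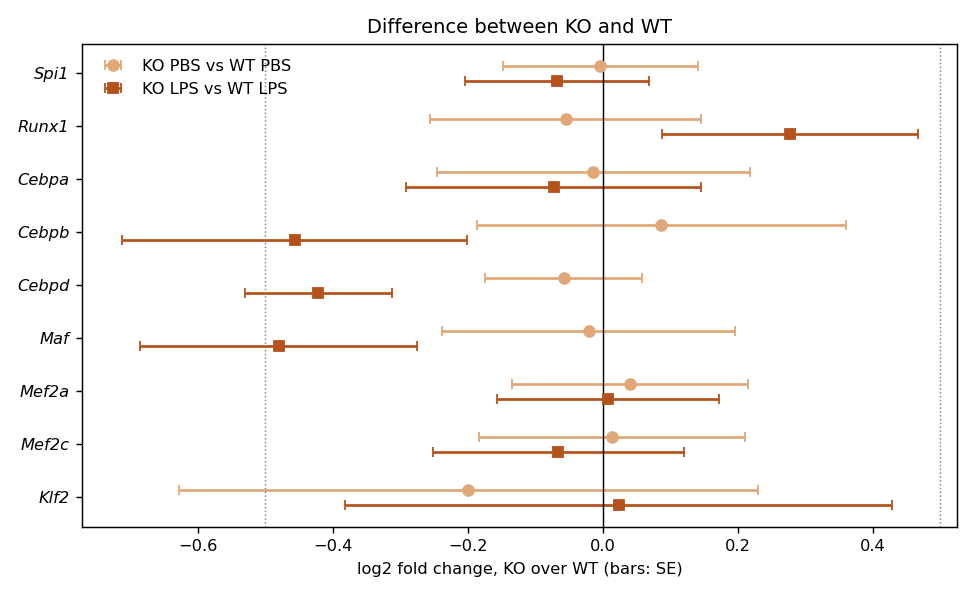
Log2 fold change of KO over wildtype mice with its SE for the 9 factors, with PBS (circles) and with LPS (squares), from the edgeR fit. The PBS values lie between -0.20 and 0.09, and after LPS Cebpb (-0.46), Cebpd (-0.42) and Maf (-0.48) lie lowest, inside the dotted lines at 0.5 in each direction.

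Counted as lists, the relatives and partners of the 9 factors held 25 tested genes of 27, of which 7 rose and 4 fell in wildtype and 10 rose and 3 fell in KO mice, with a median log2 fold change of 0.29 and 0.52, beside -0.06 and -0.01 over all genes tested. Of all genes tested, 18.4% rose and 17.4% fell in wildtype and 20.1% rose and 19% fell in KO mice, so that the falls on this list were no more frequent than over all genes. Of 12 co-regulators, 2 rose and 1 fell in wildtype and 3 rose and 2 fell in KO mice (medians 0.02 and -0.09), which is near or below those shares in wildtype mice and near them in KO mice. In the comparison of KO LPS with WT LPS, 1 gene of these lists was called, Runx3, the RUNX factor of lymphoid and some myeloid cells, at a log2 fold change of -0.64 (SE 0.29) with unadjusted p = 0.0402 and adjusted p = 1.00 from edgeR. Its means were 4.26 ± 1.18 CPM in WT LPS and 2.73 ± 1.16 CPM in KO LPS (SD, n = 5 each). With only the 2 groups compared in the fit, 0 of the relatives and partners were called, and with each mouse of these groups left out in turn, 0 to 2 were.

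**Figure D5:**
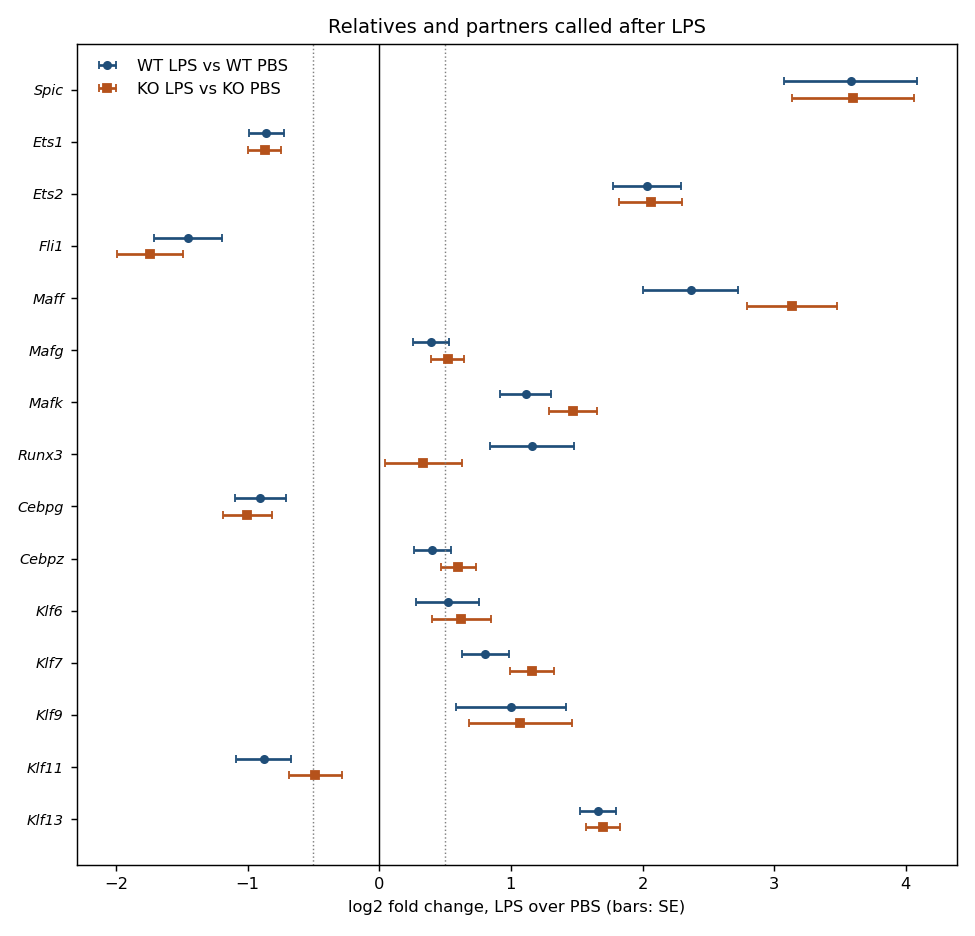
Log2 fold change between LPS and PBS with its SE for the 15 relatives and partners called in at least 1 genotype, in wildtype mice (circles) and KO mice (squares), with dotted lines at 0.5 in each direction. Spic and Maff lie farthest to the right and Fli1 farthest to the left in both genotypes.

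Of 21 tested genes of other lineage factors, 8 rose and 5 fell in wildtype and 8 rose and 4 fell in KO mice, against the same shares of all genes, to which the count of falls was close. Tfec, a relative of MITF in macrophages, rose by 2.51 (SE 0.22) and 2.56 (SE 0.21), Id2, an inhibitor of basic helix-loop-helix factors, by 2.56 (SE 0.26) and 2.89 (SE 0.24), and Stat3, which relays IL-6 and IL-10 signals, by 1.72 (SE 0.19) and 2.06 (SE 0.17). Sall1, a factor that marks microglia among macrophages, fell by 2.08 (SE 0.23) on the log2 scale in wildtype mice and by 2.27 (SE 0.22) in KO mice, Lyl1 by 1.61 (SE 0.21) and 1.91 (SE 0.21), and Mitf by 1.02 (SE 0.13) and 1.29 (SE 0.13). Irf8, the partner of PU.1, was not called, with -0.34 (SE 0.19) in wildtype and -0.38 (SE 0.18) in KO mice.

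Of 18 genes known as targets of these factors, 10 rose and 2 fell in each genotype, beside 18.4% of all genes tested that rose and 17.4% that fell in wildtype mice and 20.1% and 19% in KO mice. Csf3, the granulocyte growth factor gene and a C/EBPβ target, rose from near 0 with PBS (0.0931 CPM on average in wildtype and 0.0619 CPM in KO mice) to 88.6 ± 54.8 CPM with LPS in wildtype mice and 65.8 ± 25.6 CPM in KO mice (SD over 5 mice each). Cd14, the LPS co-receptor gene, rose by 3.06 (SE 0.26) and 3.22 (SE 0.24) on the log2 scale, and Ptgs2, which encodes COX-2, by 4.93 (SE 0.44) and 4.83 (SE 0.39). The 2 that fell were receptor genes of the steady-state programme, Csf1r by 0.73 (SE 0.20) and 0.62 (SE 0.19) and Csf3r by 0.64 (SE 0.17) and 0.55 (SE 0.17). Itgam, which encodes CD11b itself, was not called, with 0.25 (SE 0.20) in wildtype and 0.07 (SE 0.19) in KO mice. Mrc1, a target linked with MAF, was not called either, with -0.41 (SE 0.21) in wildtype and -0.30 (SE 0.19) in KO mice. No gene of this list was called between the genotypes after LPS by edgeR (0 of 18, and 0 at an unadjusted p-value under 0.05). Which factor, if any, acts on these genes was not tested.

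The genes most like each factor were found by the root mean square difference of centred log2 CPM over the 19 libraries, among 14468 other protein-coding genes. For Spi1 these were Phb2 (0.0990) and Wdr5 (0.112), where the median over all genes was 0.749. Runx1 was nearest to Kri1 (0.175) and Ubp1 (0.177), and Cebpa to Smap2 (0.206) and Abhd12 (0.207). Cebpb lay farther from its nearest genes, Ptger4 (0.371) and Nfkbia (0.378), than any other of the 9, and its range over the libraries was also the widest, 4.46 on the log2 scale. Cebpd was nearest to Slc25a22 (0.226) and Tomm40 (0.233), Maf to Mapk14 (0.163) and Lin9 (0.167), Mef2a to Vrk2 (0.116) and Rptor (0.131) and Mef2c to Scamp2 (0.110) and Manba (0.139). Klf2 was nearest to Klf4 (0.346) and Jun (0.350), a KLF relative and an immediate-early gene. No factor had another of the 9 among its 2 nearest genes. All 19 libraries share the treatment difference, so likeness in these profiles is a description with no test.

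All 9 genes overlap another annotated gene, and in most cases it lies on the opposite strand. The libraries were stranded, but the strand setting of the counting is not given in the sources used here, so reads of such pairs could in part be counted together or left out. Peds1, opposite Cebpb, had means of 32.2 CPM in WT PBS and 50.1 CPM in WT LPS, Spidr, opposite Cebpd, of 21.0 and 38.0 CPM, and Eps15l1, opposite Klf2, of 83.0 and 99.4 CPM. Over Mef2a lie 2 genes on its own strand, Gm44667 at 59.0 CPM and Gm44668 at 35.7 CPM in WT PBS, for which reads would be ambiguous under any strand setting, beside a lowest Mef2a level of 709 CPM in that group. Lysmd4, opposite Mef2a, was at 7.56 CPM, and Gm45091, opposite Cebpa, at 4.16 CPM in WT PBS. The part of reads from these overlapping genes in the levels of the 9 factors was not tested.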

How the data were processed

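The values deposited for the 19 libraries of CD11b+ brain cells are read counts, unscaled, for each Ensembl gene. The authors made stranded total RNA libraries after ribosomal depletion from 25 ng of RNA, and used Cutadapt for trimming and STAR 2.7.9a for alignment and counting of the paired reads on GRCm39 (Ensembl 108), without normalisation. The analysis here used edgeR 4.0.16 in R 4.3.3. The filter filterByExpr (minimum count 10, minimum total count 15) left 18739 genes, TMM scaled the libraries, and 1 quasi-likelihood fit with 4 groups gave all 5 contrasts. The SE is the size of the log2 fold change divided by the square root of F. Exact two-sided permutation tests used log2 CPM with a prior count of 2. The thresholds between LPS and PBS and between genotypes are those of the study. That of the interaction, an adjusted p-value under 0.05, was chosen here. Names came from GENCODE M39, which named 56236 genes. The members and lists were chosen with earlier results of these data known. Named were every member, the genes on the list of relatives and partners, and the 2 nearest genes of each member. Also named were the 3 genes per other list and direction with the smallest p-values after LPS and any gene called between genotypes. Cop1, Mapk7, Irf8, Itgam, the marker genes and the overlapping genes were named beyond that rule, after their values were seen. The result for 1 of the relatives is not reported here. The 19 libraries are separate mice, and the counts of any pair from 1 group differed beyond sampling noise (chi-square of at least 6.5 per degree of freedom). Alternatives were no filter, DESeq2's size factors, DESeq2 1.42.0, only the groups compared, another threshold, a covariate for the animal number, a block for the replicate number, the removal of ribosomal RNA and mitochondrial genes, and each mouse left out.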

Additional observations from a re-analysis of the deposited data

Results flagged for a closer look

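Within each group of 4 or 5 mice the highest and lowest CPM of each factor were compared with the rest by Dixon's gap test, 36 tests in all, of which chance gives about 1 in 20. Of the 36, 4 stood out. Mef2a in the first WT LPS mouse was at 660.0 CPM, where the next highest of its group was at 465 CPM and the lowest at 429 CPM. Mef2c in the second KO PBS mouse was at 846 CPM, where the others lay between 616 and 668 CPM. In the fifth KO LPS mouse Cebpb was at 540 CPM (the others lay between 259.7 and 335 CPM) and Klf2 at 639 CPM (115 to 195 CPM). These last 2 decide the results of Cebpb and Klf2 between the genotypes after LPS, as given above.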

How the results depend on the processing

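The 8 factors called after LPS in each genotype were called under every alternative, and leaving out each mouse kept the count at 8 and 8. In the comparison of KO LPS with WT LPS, 0 of the 9 were called except with the animal number as a covariate, where 1 was (Cebpb, -0.54, unadjusted p = 0.0462), and when a mouse was left out, where the count ran from 0 to 2. The count was 1 (Maf) without the second KO LPS or the fourth WT LPS mouse and 2 (Cebpb and Klf2) without the fifth KO LPS mouse. With PBS and for the interaction it stayed at 0. The cause was not tested. The groups share replicate numbers, but same-numbered mice are different animals, and the correlations of their deviations ran from -0.573 to 0.576. The replicate block changed no call of the 9. It turned the sign of Klf2 after LPS in KO mice (-0.13) and between KO LPS and WT LPS (-0.29), and with PBS that of Cebpa (0.0045) and Cebpb (-0.074).

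Other settings turned further signs, of values that were not called. With the animal number, Klf2 after LPS in KO mice was -0.14, and in KO LPS against WT LPS Mef2a was -0.0039, Mef2c 0.021, Cebpa 0.016 and Klf2 -0.44. With PBS it gave Maf 0.0083, Cebpa 0.048 and Cebpb -0.014. Without the filter Mef2a was -0.012 and Klf2 -0.020 in KO LPS against WT LPS and Mef2c -0.019 with PBS. DESeq2's size factors gave Mef2c -0.0064 with PBS and Mef2a 0.0017 in the interaction, and DESeq2 -0.0057 and 0.0013. Spi1 with PBS was 0.0047 without ribosomal and mitochondrial genes and 0.0037 with only the groups compared.

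When each mouse was left out, Klf2 after LPS ran from -0.21 to 0.045 in wildtype and from -0.65 to 0.31 in KO mice. Between KO LPS and WT LPS the ranges were -0.68 to -0.32 for Maf, -0.060 to 0.14 for Mef2a, -0.19 to 0.083 for Mef2c, -0.23 to 0.062 for Cebpa, -0.67 to -0.37 for Cebpb and -0.75 to 0.20 for Klf2. With PBS they were -0.077 to 0.075 for Spi1, -0.092 to 0.054 for Maf, -0.042 to 0.11 for Mef2a, -0.080 to 0.11 for Mef2c, -0.13 to 0.0027 for Runx1, -0.11 to 0.13 for Cebpa, -0.080 to 0.28 for Cebpb and -0.14 to 0.015 for Cebpd. The interaction ran from -0.18 to 0.0096 for Spi1, -0.11 to 0.096 for Mef2a, -0.21 to 0.069 for Mef2c, -0.22 to 0.076 for Cebpa and -0.55 to 0.40 for Klf2.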
